A study of Mus musculus with 12 samples.

Results

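The genes described here are 9 transcription factors of the muscle lineage, chosen by name for their known roles from the 30154 genes in the count table: Pax7, Pax3, Myf5, Myod1, Myog, Myf6, Mef2a, Mef2c and Six4. All 9 passed the filter on low counts that left 15890 genes for testing. They were measured by bulk RNA sequencing of muscle stem cells sorted by flow cytometry from 3 hind limb muscles of C57BL/6J mice aged 2 to 3 months. The mice were wild type, or carried a knockout of the stress-induced proteins Sestrin1 and Sestrin2 in which the labels name no tissue-restricted Cre. Cells came from uninjured muscle, called day 0, and from muscle 7 and 21 days after an injury whose kind the labels do not give. Each of the 6 groups had 2 libraries, and the labels do not say whether those came from separate or pooled animals, so p-values measure the spread between libraries, which may be technical.

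Muscle stem cells sit beside muscle fibres, are quiet in uninjured muscle, and on injury divide, differentiate and fuse into new fibres. Pax7 and Pax3 mark and maintain the stem cell state. The basic helix-loop-helix factors Myf5 and Myod1 commit cells to the muscle lineage, Myog (myogenin) drives their differentiation, and Myf6 (Mrf4) acts late in that course. Mef2a and Mef2c encode MADS-box partners of these factors, and Six4 encodes a homeodomain factor that acts on their genes.

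Libraries held between 28396780 and 38950514 estimated counts. Sesn2, a knocked-out gene, had 5.47 and 7.03 counts scaled to library size (CPM) in the knockout libraries of day 0 against 75.1 and 84.4 in wild type, and 2.36 and 1.92 against 44.9 and 47.4 at day 7. At day 21 it went against the labels: replicate 2 labelled knockout had 108 CPM and replicate 1 labelled wild type had 8.92, while the others had 9.86 (knockout) and 82.1 (wild type). Sesn1, the other knocked-out gene, kept 46.0 and 45.8 CPM in knockout against 70.4 and 68.6 in wild type at day 0 (1.51-fold lower, adjusted p = 0.144, not called) and 28.4 and 22.4 against 84.0 and 67.9 at day 7 (2.98-fold lower, adjusted p = 0.0301). The fit of all 12 libraries did not call Sesn2 itself at day 0 (12.8-fold lower, adjusted p = 0.058) or day 7 (21.4-fold lower, adjusted p = 0.17). Genotypes at day 21 are therefore given by label, and the main results for that day pool both labels. All 8 muscle stem cell markers checked were at 1 TPM (a level scaled to transcript length and library) or more in every library. Their summed TPM was 707 to 743 in knockout and 1070 to 1100 in wild type at day 0, and 1030 to 1880 later. Markers of other cells were also present: 8 fibro-adipogenic genes summed to between 5130 and 10000 TPM and 6 smooth muscle and pericyte genes to between 2140 and 7600 TPM. These sums rest on few genes. At day 0 they were mostly Dcn (4639 to 5968 TPM) and Acta2 (4695 to 7072 TPM). Pdgfra then stood at 3.45 to 6.24 TPM and Kcnj8 at 0.0166 to 4.09 TPM. At day 7 Col3a1 (4149 to 5010 TPM) was the largest of the fibro-adipogenic genes. In bulk RNA, fewer cells of a type and less RNA per cell cannot be told apart.

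**Figure D1:**
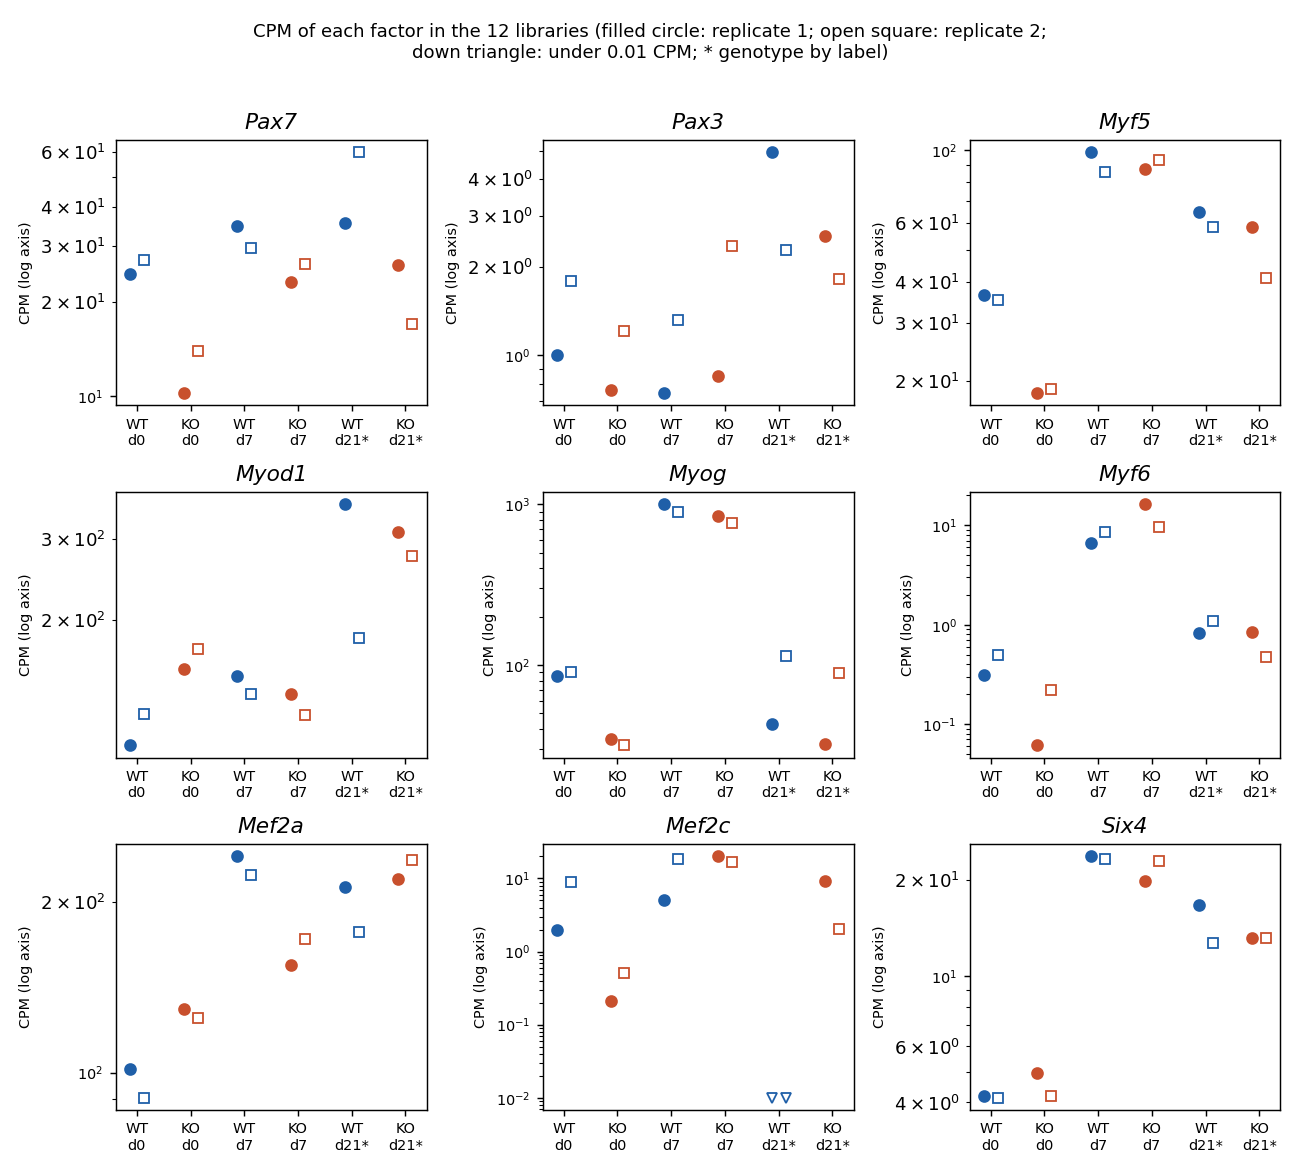
CPM of the 9 factors on log axes, for the 6 groups, with 1 point per library (blue for wild type, red for knockout). Myog is above 763 CPM in all 4 libraries of day 7 and at most 114 CPM elsewhere, while Myod1 is highest at day 21 and Mef2c is below 0.01 CPM in both libraries labelled wild type at day 21.

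In uninjured wild-type muscle the factors covered a wide range of levels per transcript length. Myod1 stood at 79.7 and 92.6 TPM and Myog at 83.9 and 87.9 TPM, so these genes overlapped at the top. Mef2a followed at 45.1 and 41.4 TPM, and Myf5 at 23.8 and 22.8 TPM. Pax7 was lower than all of these, at 6.45 and 6.77 TPM, and Six4, Pax3 and Myf6 were each below 1 TPM in both libraries. Mef2c was at 0.389 and 1.71 TPM, the widest ratio between replicates of the 9 in this group.

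Most of the factors were higher 7 days after injury. Between day 0 and day 7, pooled over the genotypes, 7 of the 9 rose and none fell by edgeR's quasi-likelihood test at an adjusted p under 0.05; among all genes tested 57.4% were called, 31.2% higher and 26.2% lower. The median log2 fold change of the 9 was 1.82, and that of all genes 0.05. Myf6, Myog, Mef2c and Six4 rose most, and Myod1 and Pax3 were not called.

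Myog carried the largest change in level. It had 85.9 and 90.9 CPM in wild type and 34.7 and 31.6 CPM in knockout at day 0, and 1005 and 893 CPM in wild type and 847 and 763 CPM in knockout at day 7. Every day 7 library lay far above every day 0 library, with a pooled log2 fold change of 4.01 ± 0.399 (SE, adjusted p = 5.42e-05). The rise was 3.42 ± 0.548 in wild type and 4.60 ± 0.582 in knockout. Myog lies at chr1:134289989-134292548 on the plus strand of GRCm38, a protein-coding gene with 1 annotated transcript that overlaps no other gene. Its promoter is shown because its 2 E-boxes, the letters CANNTG that basic helix-loop-helix factors are known to bind, lie within the bases before the start site. The sequence is from RefSeq (GRCm38.p6, chr1:134289754-134290053, plus strand, 250 bases before to 50 after the start), with the E-boxes CACATG at -138 and CAGTTG at -12 in capitals:
Myog: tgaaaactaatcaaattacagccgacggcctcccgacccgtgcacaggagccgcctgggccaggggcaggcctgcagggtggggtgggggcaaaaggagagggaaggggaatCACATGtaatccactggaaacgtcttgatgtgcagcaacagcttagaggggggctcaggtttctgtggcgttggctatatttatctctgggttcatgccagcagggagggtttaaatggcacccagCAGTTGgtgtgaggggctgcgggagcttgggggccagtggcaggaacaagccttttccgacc
CANNTG reads the same on both strands, and 72.3% of 32851 mouse promoters of the same 300 bases hold at least 1, so a match describes these letters and no binding.

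Myf6 and Myf5, neighbours on chromosome 10 with 6718 bases between them (Myf5 at chr10:107482908-107486134 and Myf6 at chr10:107492853-107494737, both minus strand), both rose. Myf6 went from 0.312 and 0.501 CPM to 6.70 and 8.48 CPM in wild type, a log2 fold change of 4.20 ± 0.48 (adjusted p = 6.97e-05). In knockout it went from 0.0608 and 0.221 CPM to 16.4 and 9.61 CPM. The knockout libraries of day 0 held 8 Myf6 counts together against 950 at day 7, a ratio of 101 with a 95% exact interval of 51 to 234 that covers counting error only. The fitted log2 fold change of 6.55 ± 0.565 was 5.86 without knockout replicate 1 of day 0 and 7.63 without replicate 2. Myf5 went from 36.3 and 35.1 CPM to 98.7 and 85.9 CPM in wild type, and from 18.4 and 19.0 CPM to 87.6 and 93.0 CPM in knockout. In each genotype the day 0 and day 7 values did not overlap. The log2 fold changes were 1.37 ± 0.152 (adjusted p = 5.7e-05) in wild type and 2.27 ± 0.158 (adjusted p = 2.44e-06) in knockout. At day 7 the Myf5 values of the genotypes overlapped.

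Six4 had 4.19 and 4.14 CPM in wild type and 4.96 and 4.20 CPM in knockout at day 0, and 23.8 and 23.4 CPM against 19.9 and 22.9 CPM at day 7. Its replicates were close together, and the pooled log2 fold change was 2.36 ± 0.122 (adjusted p = 1.43e-07). Mef2a rose from 102 and 90.3 CPM to 240.2 and 223 CPM in wild type, and from 129 and 125 CPM to 155 and 172 CPM in knockout. That is a log2 fold change of 1.27 ± 0.112 (adjusted p = 1.34e-05) in wild type and 0.36 ± 0.11 (adjusted p = 0.0202) in knockout, where the call was lost without day 0 replicate 1 or 2 or day 7 replicate 2 (adjusted p between 0.0682 and 0.148).

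Pax7 and Mef2c were called between day 0 and day 7 in knockout and not in wild type, but the difference between the genotypes in this change was not called for Pax7 (0.72 ± 0.384, adjusted p = 0.249) or Mef2c (4.55 ± 1.53, adjusted p = 0.098). Pax7 had 24.5 and 27.2 CPM at day 0 and 35.0 and 29.7 CPM at day 7 in wild type, and 10.2 and 13.9 against 23.1 and 26.3 CPM in knockout. The knockout change was 1.04 ± 0.277 (adjusted p = 0.011), and the wild-type value was 0.32 ± 0.268 (adjusted p = 0.353). The knockout call was lost without day 0 replicate 1 (adjusted p = 0.0913) or day 7 replicate 2 (adjusted p = 0.0584), and the pooled Pax7 call without day 0 knockout replicate 1 (adjusted p = 0.0507). Mef2c had 0.213 and 0.516 CPM at day 0 and 20.1 and 16.5 CPM at day 7 in knockout, with a log2 fold change of 5.68 ± 1.24 (adjusted p = 0.00762) that was not called without day 0 replicate 1 (adjusted p = 0.0632). Wild-type Mef2c was 2.00 and 8.81 CPM, then 5.12 and 18.7 CPM, and its groups overlapped.

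Counted by genotype, 5 factors rose in wild type (Myf5, Myog, Myf6, Mef2a and Six4) and 7 in knockout, the same 5 with Pax7 and Mef2c. Among all genes 47% were called in wild type (25.8% higher, 21.2% lower) and 46.9% in knockout (24.7% higher, 22.2% lower). The knockout count was 4 without day 0 replicate 1. Myod1 was not called in either genotype: 107 and 125 CPM in wild type and 156 and 173 CPM in knockout at day 0, and 151 and 138 CPM against 138 and 124 CPM at day 7, with a pooled log2 value of -0.01 ± 0.175. In a fit restricted to days 0 and 7, Myod1 was called higher at day 7 in wild type (0.27, adjusted p = 0.0388) and lower in knockout (-0.36, adjusted p = 0.0119). It was likewise called without replicate 1 or 2 labelled wild type at day 21 (adjusted p = 0.0453 and 0.0348 in wild type, 0.0221 and 0.0312 in knockout). Pax3, at 0.742 to 2.37 CPM over the day 0 and day 7 libraries, was not called in either genotype.

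**Figure D2:**
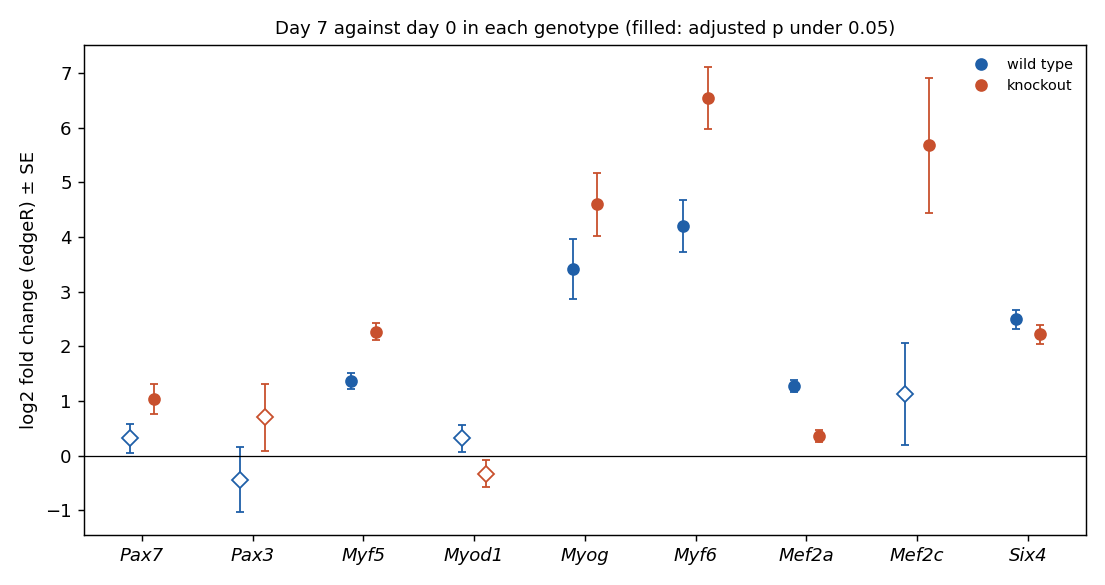
Log2 fold change of each factor from day 0 to day 7 with its standard error, in wild type (blue) and knockout (red), with filled points for an adjusted p under 0.05. Myf6 has the highest point in both genotypes (4.20 and 6.55), Myf5 lies higher in knockout (2.27 against 1.37), and Mef2a lies higher in wild type (1.27 against 0.36).

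The summed TPM of Myf5, Myod1, Myog and Myf6 went from between 169.5 and 203.8 at day 0 to between 1023 and 1349 at day 7, and their shares shifted. In wild type at day 0 Myod1 made up 42.5% and 45.4% of that sum and Myog 44.7% and 43.1%. In knockout at day 0 Myod1 made up 71.7% and 74.8% and Myog 20.8% and 17.8%, so the genotypes did not overlap. At day 7 Myog made up between 81.8% and 84.1% and Myod1 between 9.66% and 10.2% in all 4 libraries, with the genotypes less than 3 percentage points apart. At day 21 Myod1 was the largest share in each library, between 47.5% and 76.6%. Myog was at 10.5% and 11.9% in replicate 1 of either label, and at 27.2% and 38.7% in replicate 2.

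**Figure D3:**
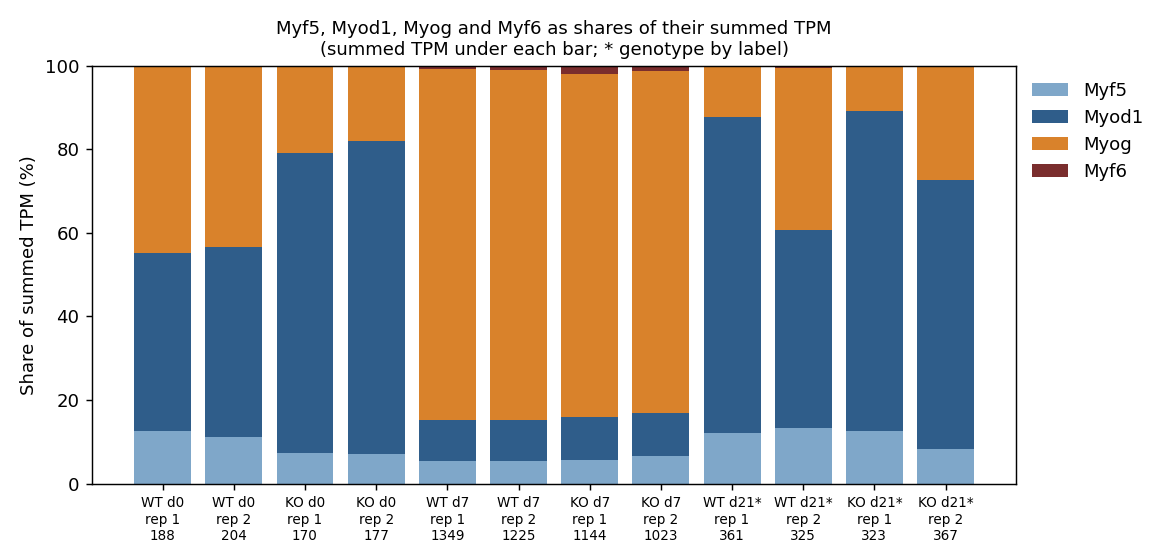
Shares of Myf5, Myod1, Myog and Myf6 in their summed TPM (percent, stacked bars from 0 to 100), 1 bar per library, with the summed TPM under each bar. Myog fills 81.8% or more of each day 7 bar, and at day 0 its share is 17.8% and 20.8% in knockout against 43.1% and 44.7% in wild type.

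Most genes known to be switched on as muscle cells differentiate rose over the same days. Of 19 such genes, 17 rose between day 0 and day 7 and Cdkn1a, a cell cycle inhibitor, fell (log2 fold change -1.15 ± 0.0712); the list's median was 5.04 against 0.05 over all genes. Myh8, a perinatal myosin heavy chain, rose by 9.30 ± 0.462. Of 7 E proteins and Id proteins, the partners and inhibitors of the basic helix-loop-helix factors, 3 rose and 3 fell. Tcf3, which encodes the E proteins that pair with Myod1 and Myog, rose by 1.34 ± 0.0669, and Id4 fell by 2.06 on the log2 scale. Of 10 helix-loop-helix and Snail repressors 3 rose and 3 fell, with Msc (musculin) at 2.53 ± 0.121 and the Notch target Hes1 at -2.10 ± 0.134. Of 11 relatives and cofactors of Mef2a and Six4 (Eya and Dach genes included) 5 rose, led by Eya4 at 2.02 ± 0.2, and Dach2 fell. Of 11 histone deacetylases and coactivators 5 rose and 3 fell, and of 11 quiescence genes 4 rose and 2 fell, with medians of -0.17 and 0.14. The counts of the lists other than the differentiation genes stand beside 57.4% of all genes called, 31.2% higher and 26.2% lower. Mature fibre markers moved with these results: 8 of them, of which Ckm and Acta1 are also in the differentiation list, summed to between 52.4 and 82.1 TPM at day 0 and between 1550 and 3200 TPM at day 7. Of the 5 Schwann and the 5 red blood cell markers all were called lower at day 7 when pooled, with medians of -2.65 and -1.35. By genotype, all 5 red blood cell markers were lower in wild type (median -2.29) and 1 of 5 in knockout (median -0.49). Smooth muscle and pericyte markers summed to between 4980 and 7600 TPM at day 0 and between 2140 and 3140 TPM at day 7. Most of this was Acta2 (4695 to 7072 TPM, then 1932 to 2936 TPM), and 2 of the 6 markers were called higher and 3 lower. Of 7 immune markers tested 5 were higher and 1 lower, and of 8 fibro-adipogenic markers 5 were higher and 2 lower. Of 7 endothelial markers 2 were lower pooled, 4 in knockout and 1 in wild type, and the difference between the genotypes was called for 1. Their part in the results was not tested.

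In uninjured muscle the knockout had lower Myf5 and Pax7 and slightly higher Mef2a than wild type. At day 0, 3 of the 9 factors were called, Mef2a higher and Myf5 and Pax7 lower, where 27.4% of all genes were called (14.8% higher, 12.6% lower). The median log2 fold change of the 9 was -0.94, and that of all genes 0. Myog was also lower in both knockout libraries, and was called when the fit was restricted to days 0 and 7.

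Myf5, at 18.4 and 19.0 CPM in knockout against 36.3 and 35.1 CPM in wild type, had a log2 fold change of -0.94 ± 0.154 (adjusted p = 0.00234), and it was called in each of the 12 fits that left out 1 library. Pax7, at 10.2 and 13.9 against 24.5 and 27.2 CPM, had -1.10 ± 0.277 (adjusted p = 0.0161). Neither gene's groups overlapped. Pax7 was not called without knockout replicate 1 (-0.89, adjusted p = 0.112), wild-type replicate 1 (-1.17, adjusted p = 0.0561) or wild-type replicate 2 (-1.02, adjusted p = 0.0833), nor by limma on log2(TPM + 1) (-0.75, adjusted p = 0.073) or log2(TPM + 0.1) (-0.89, adjusted p = 0.0562). Mef2a was higher in knockout at 129 and 125 CPM against 102 and 90.3 CPM, with 0.40 ± 0.11 (adjusted p = 0.0224), and was not called without any 1 of these 4 libraries (adjusted p between 0.0597 and 0.167).

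Mef2a lies at chr7:67231163-67372858 on the minus strand of GRCm38, where Lysmd4, Gm44667 and Gm44668 overlap it and share 302 exon bases with it. Of its 31-base words 5.31% also occur in GENCODE transcripts of other genes, so some of its reads may be split between genes. Its promoter is shown because it holds a MEF2 box, the site that Mef2 proteins themselves are known to bind. The sequence is from RefSeq (GRCm38.p6, chr7:67372809-67373108, minus strand, written 5′ to 3′ along the gene), with the MEF2 box at -2 in capitals:
Mef2a: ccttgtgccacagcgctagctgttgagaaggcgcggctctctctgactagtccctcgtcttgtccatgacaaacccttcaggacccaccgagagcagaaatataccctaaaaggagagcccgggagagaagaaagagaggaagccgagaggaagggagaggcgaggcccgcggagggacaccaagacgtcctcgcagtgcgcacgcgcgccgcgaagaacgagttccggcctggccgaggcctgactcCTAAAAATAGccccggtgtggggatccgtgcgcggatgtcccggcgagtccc
The MEF2 box was searched on both strands as YTAWWWWTAR (Y: C or T, W: A or T, R: A or G). In this form it occurs in 3.19% of the 32851 promoters. Of the 9 factors 6 matched an entry in the table of promoters, and 1 of these holds it. Looser forms were not counted: CTATATTTAT in the Myog promoter above differs from the pattern at its last letter.

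Myog had 34.7 and 31.6 CPM in knockout and 85.9 and 90.9 CPM in wild type at day 0, and the groups lay far apart. Its log2 fold change was -1.41 ± 0.517 (adjusted p = 0.0774). Restricted to days 0 and 7 it was -1.43 (adjusted p = 2.16e-05), and without any 1 of the 4 day 21 libraries the adjusted p was between 0.0295 and 0.0369. Myod1 went the other way, with 156 and 173 CPM in knockout against 107 and 125 CPM in wild type. Its value was 0.51 ± 0.248 (adjusted p = 0.16), and 0.49 (adjusted p = 0.00449) in the restricted fit. There 6 of the 9 factors were called at day 0 (Pax7, Myf5, Myog and Mef2c lower, Myod1 and Mef2a higher), where 38.9% of all genes were.

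The remaining factors were not called at day 0 in the fit of all libraries. Mef2c had 0.213 and 0.516 CPM in knockout and 2.00 and 8.81 CPM in wild type, with a log2 fold change of -3.92 ± 1.21 (adjusted p = 0.0507). The value was -2.47 without wild-type replicate 2 (adjusted p = 0.23) and ran from -4.64 to -0.86 over the alternatives, with adjusted p up to 0.54. Mef2c was called without any 1 of the 2 wild-type libraries of day 7 or of the 2 labelled knockout at day 21 (adjusted p between 0.0359 and 0.0461). Myf6 was at -1.58 ± 0.622 (adjusted p = 0.0842) on 8 counts in the knockout libraries together. Six4 (0.14 ± 0.174) and Pax3 (-0.51 ± 0.606) had values smaller than their standard errors. The Pax3 groups overlapped, and those of Six4 did not (4.96 and 4.20 CPM in knockout against 4.19 and 4.14 CPM in wild type).

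Markers of cell types moved with these differences. Of the 8 muscle stem cell markers 6 were called lower in knockout at day 0, and of 11 quiescence genes, which hold 7 of those markers, 7 were lower and none higher, with a median of -0.79, where 12.6% of all genes were lower. Fibro-adipogenic markers summed to between 5130 and 5190 TPM in knockout and between 6390 and 6580 TPM in wild type, with 2 of 8 called lower. Most of this was Dcn (4725 and 4639 against 5968 and 5787 TPM). Of the list Pdgfra and Smoc2 alone were higher in both knockout libraries, and neither was called. Endothelial markers summed to between 275 and 283 against 227 and 228 TPM, with 1 of 7 called higher. Mature fibre markers summed to between 52.4 and 55.8 against 75.2 and 82.1 TPM, with 2 of 8 called lower and 1 higher. Vcam1, an adhesion receptor of quiescent stem cells, was at -1.16 ± 0.203. Smooth muscle and pericyte markers summed to between 7580 and 7600 TPM in knockout and between 4980 and 4990 TPM in wild type. Most of this was Acta2 (7072 and 7025 against 4699 and 4695 TPM), and 3 of the 6 markers were called higher. Immune markers summed to between 3410 and 3510 against 2030 and 2050 TPM, and no immune marker was called. Almost all of the sum was Lyz2 (3508 and 3401 against 2027 and 2043 TPM). Adgre1 and Cd3e were at 0 in all 4 libraries. Csf1r, Itgam and Ptprc were under 1 TPM and lower in both knockout libraries, and Cd79a was under 1 TPM and higher in both. Cd68 overlapped, at 4.52 and 3.44 against 3.56 and 3.30 TPM. Schwann markers (5 genes) summed to between 965 and 971 against 701 and 719 TPM, and red blood cell markers (5 genes) to between 742 and 782 against 3120 and 3130 TPM. Divided by the summed stem cell markers, the wild-type to knockout ratio of TPM went from 1.86 to 1.24 for Pax7, from 1.84 to 1.23 for Myf5 and from 2.57 to 1.72 for Myog. The knockout to wild-type ratio went from 1.47 to 2.21 for Myod1 and from 1.36 to 2.03 for Mef2a. The part of cell makeup in the differences was not tested further.

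**Figure D4:**
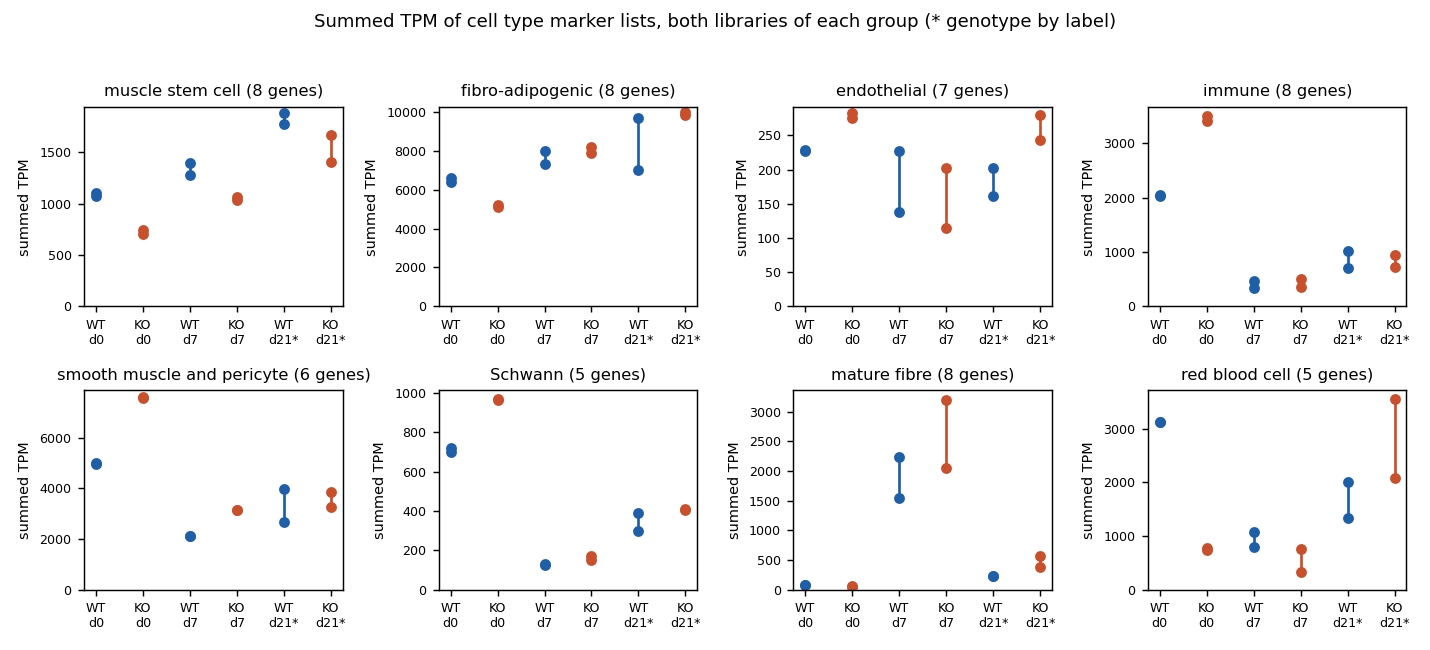
Summed TPM of 8 lists of cell type markers, with the 2 libraries of each group joined by a line. At day 0 the stem cell sum is 707 to 743 TPM in knockout against 1070 to 1100 TPM in wild type, and mature fibre markers are between 1550 and 3200 TPM at day 7 only.

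Lists of genes around the factors are read here against the 27.4% of all genes called at day 0, 14.8% higher and 12.6% lower. Of the 10 helix-loop-helix and Snail repressors 5 were lower and none higher, with a median of -0.53 against 0 over all genes; Msc, an antagonist of Myod1, was at 27.4 and 31.5 CPM in knockout and 88.7 and 94.3 CPM in wild type (log2 fold change -1.64 ± 0.167). Of the 19 differentiation genes 6 were lower, led by Tnnt2 (cardiac troponin T) at -1.84 ± 0.427, and Cdkn1a was higher at 0.36 ± 0.0996. Called genes were 2 of the 7 E proteins and Id proteins, 2 of the 11 relatives and cofactors of Mef2a and Six4 and 2 of the 11 histone deacetylases and coactivators, near or below the share of all genes. Of the E proteins Tcf12 was higher (0.40 ± 0.0857) and Tcf4 lower (-0.64 ± 0.115). Six2, among the relatives, was lower (-1.15 ± 0.286). Hdac9, whose product represses Mef2 proteins, was higher at 11.8 and 12.5 CPM against 2.25 and 3.69 CPM (2.03 ± 0.353), and the chromatin remodeller Smarca4 was at 0.50 ± 0.0956.

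At day 7 none of the 9 factors was called between the genotypes by edgeR's quasi-likelihood test, where 1.76% of all genes were called (1.08% higher, 0.68% lower). At an unadjusted p under 0.05 there was 1 factor of 9, where 14.3% of all genes were: Mef2a, with 155 and 172 CPM in knockout against 240.2 and 223 CPM in wild type (log2 fold change -0.50 ± 0.11, adjusted p = 0.0515). DESeq2 called Mef2a (adjusted p = 0.00256), as did the fit restricted to days 0 and 7 (adjusted p = 0.00753), where 7.46% of all genes were called. Without replicate 1 or replicate 2 labelled wild type at day 21 the adjusted p was 0.0172 and 0.018. Myf5, at -0.03 ± 0.148, and Six4, at -0.14 ± 0.16, had the values nearest to 0 beside Myod1 (-0.14 ± 0.247). Of the 19 differentiation genes Myl4, an embryonic myosin light chain, was called higher (0.77 ± 0.151) and no other.

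**Figure D5:**
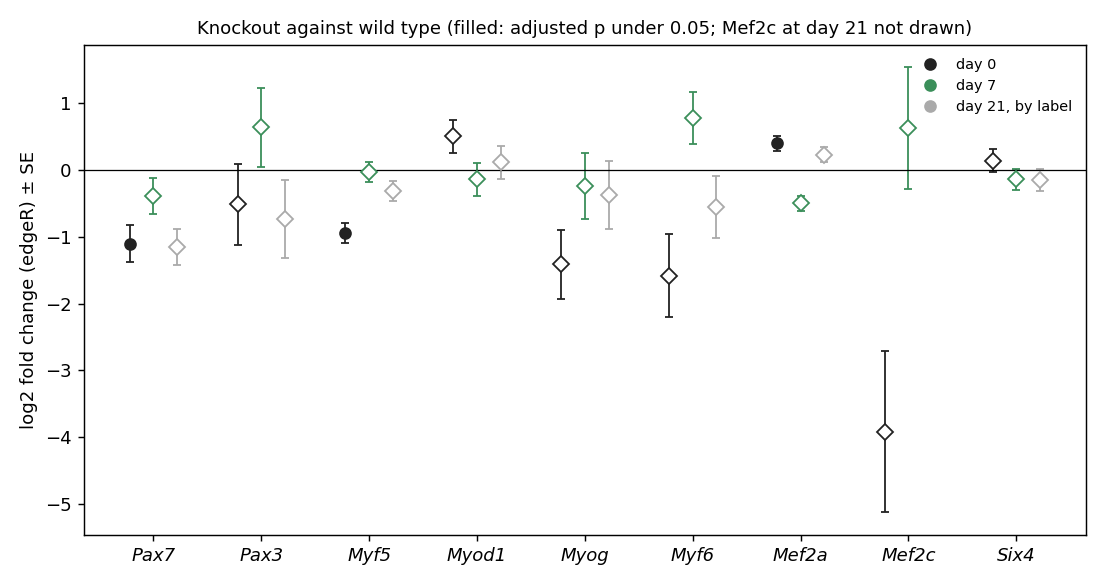
Log2 fold change of knockout against wild type with its standard error, at day 0 (black), day 7 (green) and day 21 by label (grey), with filled points for an adjusted p under 0.05. Filled points are Pax7 (-1.10), Myf5 (-0.94) and Mef2a (0.40) at day 0, and Mef2c at day 21 is not drawn because both libraries labelled wild type are at 0.

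The change from day 0 to day 7 differed between the genotypes for 2 of the 9 factors, tested as an interaction, where 13.5% of all genes were called (6.08% higher in knockout, 7.39% lower). It uses the same day 0 libraries as the comparison of uninjured muscle. Myf5 rose by 0.90 ± 0.213 more on the log2 scale in knockout (adjusted p = 0.0234), and Mef2a by less, at -0.91 ± 0.156 (adjusted p = 0.00729). Mef2a ran from higher in knockout at day 0 to lower in both knockout libraries at day 7. Divided by the summed stem cell markers, its knockout to wild-type ratio of TPM at day 7 went from 0.756 to 0.963. The Myf5 call was lost without any 1 of the 8 libraries of days 0 and 7 except knockout day 7 replicate 1 (adjusted p between 0.0533 and 0.0902). In the fit restricted to days 0 and 7, 6 factors were called, where 24.8% of all genes were: Pax7 (0.74), Myf5 (0.92), Myog (1.19) and Myf6 (2.38) had positive differences of change, and Myod1 (-0.63) and Mef2a (-0.89) had negative values. Myod1 was also called without replicate 1 or 2 labelled wild type at day 21 (adjusted p = 0.0203 and 0.0212).

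Among the lists, 5 of 10 repressors were called with a positive difference of change, knockout minus wild type, and none with a negative one, where 6.08% of all genes were called with a positive and 7.39% with a negative one. Msc (2.27 ± 0.232) rose in both genotypes and by more in knockout, while the means of Hey1 (0.79 ± 0.231) were 57.7 CPM at day 0 and 38.4 CPM at day 7 for wild type, against 32.2 and 37.0 CPM for knockout. Of the 19 differentiation genes 5 rose more, with Tnnt2 at 2.47 ± 0.544. Six2 (1.67 ± 0.399) had means of 25.1 and 24.3 CPM in wild type at days 0 and 7 and of 11.3 and 34.8 CPM in knockout. The values of Hdac9 (-1.68 ± 0.486) and Smarca4 (-0.59 ± 0.135) were negative. Medians were 0.62 for the repressors and 1.29 for the differentiation genes, against 0.01 over all genes. Of the cell type markers, 2 of 8 stem cell, 2 of 8 mature fibre and 1 of 8 fibro-adipogenic genes were called with a positive difference. Of 5 Schwann markers 1 was positive and 1 negative, and 1 of 7 endothelial markers was negative. Their part in these differences was not tested.

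By day 21 most of the factors had come down from day 7, and Myod1 stood at its highest. Pooled over the labels, 5 of the 9 fell between day 7 and day 21 (Myog, Myf6, Mef2c, Myf5 and Six4) and 2 rose (Myod1 and Pax3), where 56.8% of all genes were called (28.4% higher, 28.4% lower). Mef2c had 5.12 to 20.1 CPM in the 4 libraries of day 7 and 0, 0, 2.01 and 9.20 CPM at day 21, so the days overlapped. Its fitted log2 value rests on the libraries at 0 and ran from -7.42 to -1.53 over the alternatives, with the call kept in each of the 22. Against day 0, 7 were higher at day 21 and none lower by edgeR, where 45.9% of all genes were called (25% higher, 20.8% lower). Pax7, Myf5, Myod1, Six4, Mef2a, Pax3 and Myf6 were the 7. DESeq2 also called Mef2c lower (-3.02, adjusted p = 0.0131). That value too rests on the libraries at 0. Mean Mef2c was 2.88 CPM at day 0 and 2.80 CPM at day 21, and the days overlapped. The log2 value against day 0 ran from -4.04 to -0.01 over the alternatives.

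Myog had 42.9 and 114 CPM by the wild-type label and 32.4 and 88.9 CPM by the knockout label, a log2 fold change of -3.66 ± 0.392 from day 7 (adjusted p = 9.04e-05). The higher value of each label was replicate 2, which was also the replicate high in Sesn2. Myf6 had 0.827 and 1.10 CPM by the wild-type label and 0.85 and 0.472 CPM by the knockout label, a log2 fold change of -3.64 ± 0.323 (adjusted p = 7.44e-06). Myf5, at 65.1 and 58.6 CPM by the wild-type label and 58.4 and 41.1 CPM by the knockout label, stayed above every day 0 library and below every day 7 library (-0.72 ± 0.106 from day 7, adjusted p = 0.000207). Six4 did the same, at 16.7 and 12.7 CPM against 13.2 CPM in both libraries labelled knockout (-0.69 ± 0.114, adjusted p = 0.000458).

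Myod1 had 357 and 183 CPM by the wild-type label and 309.8 and 274.5 CPM by the knockout label, above every library of day 0 and day 7, with a log2 fold change of 1.03 ± 0.176 from day 7 (adjusted p = 0.000734). Pax7 had 35.6 and 60.2 CPM by the wild-type label and 26.2 and 16.95 CPM by the knockout label, so its range spanned that of day 7. It was called against day 0 (0.87 ± 0.193, adjusted p = 0.00472) and not against day 7, where it was called without both libraries that Sesn2 went against (0.51, adjusted p = 0.0102) and was at -0.03 without replicate 2 labelled wild type (adjusted p = 0.91). Mef2a, at 212 and 177 CPM and 219 and 236 CPM, was called against day 0 (0.93 on the log2 scale) and, against day 7, with the batch-corrected values (0.15, adjusted p = 0.032) but not in the fit of counts. Pax3 was at 4.96 and 2.29 CPM by the wild-type label and 2.55 and 1.82 CPM by the knockout label. Its rises of 1.13 ± 0.419 from day 7 (adjusted p = 0.0403) and 1.26 ± 0.423 from day 0 (adjusted p = 0.033) did not hold when libraries were left out. The first was lost without knockout replicate 1 of day 0, replicate 1 of either genotype at day 7, either library labelled knockout at day 21 or replicate 1 labelled wild type at day 21 (adjusted p between 0.0502 and 0.152). The second was lost without either knockout library of day 0, wild-type replicate 1 of day 0, or replicate 1 of either label at day 21 (adjusted p between 0.0538 and 0.124).

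Between the labels at day 21 none of the 9 factors was called by edgeR's quasi-likelihood test, where 0.0126% of all genes were called (0.00629% in each direction). At an unadjusted p under 0.05 there were 2 of 9, where 14.2% of all genes were: Pax7 (-1.15 ± 0.272, adjusted p = 0.153) and Mef2c. DESeq2 called both. Without replicate 1 labelled wild type, Pax7 was at -1.48 and Myod1 at 0.68. That fit leaves 1 library labelled wild type, whose spread is taken from the other groups. Mef2c had no rounded count in either library labelled wild type and 9.20 and 2.01 CPM in those labelled knockout, at least 63.9-fold higher against a floor of 3 counts per library. That bound is 23-fold without replicate 1 labelled knockout and 105-fold without replicate 2, and Sesn2 contradicts the labels of 2 of these 4 libraries. Mef2c has 31 annotated transcripts, the most of the 9 factors, at chr13:83504034-83667080 on the plus strand of GRCm38, and 0.0436% of its 31-base words occur in other genes. Mef2c also differed between replicates by more than 4 times in wild type at day 0 in the CPM given above, and the cause was not tested. Without both libraries that Sesn2 went against, which leaves 1 library per label whose spread is taken from the other groups, 3 factors were called, where 7.29% of all genes were. These were Myog (-1.81, adjusted p = 0.000342), Pax7 (-1.19, adjusted p = 0.0145) and Myod1 (0.77, adjusted p = 0.0122). The libraries left are replicate 1 labelled knockout and replicate 2 labelled wild type, and Myog was higher in replicate 2 of either label, so label and replicate cannot be told apart there.

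Of the 19 differentiation genes 17 fell between day 7 and day 21, led by Myh3, the embryonic myosin heavy chain, at -5.80 ± 0.768, and Cdkn1a rose by 0.60 ± 0.0706. Of the 11 quiescence genes 6 rose and 2 fell, from Sdc4 (syndecan 4) at 1.76 ± 0.0797 to the chemokine receptor Cxcr4 at -0.94 ± 0.139, and 8 were higher at day 21 than at day 0 with none lower. Of all genes 56.8% were called from day 7, 28.4% in each direction, and 25% were higher than at day 0. Mature fibre markers summed to between 235 and 572 TPM at day 21, and the 8 stem cell markers to between 1400 and 1880 TPM. Markers of other cell types moved as well from day 7: all 5 Schwann, all 5 red blood cell and 3 of 7 endothelial markers were higher, and 4 of 7 immune markers tested were lower and 1 higher. Of 6 smooth muscle and pericyte markers 3 were higher and 1 lower from day 7, and of 8 fibro-adipogenic markers 3 were higher and 2 lower. Against day 0, all 8 stem cell markers (median 0.83) and 7 of 8 mature fibre markers (median 2.94) were higher. Of the 8 fibro-adipogenic markers 6 were higher and 1 lower than at day 0, and all 5 Schwann markers were lower. Their part in the results was not tested.

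Genes with the pattern most like that of a factor were sought by the root mean square difference of log2 CPM, each gene centred on its own mean, over the 12 libraries and 9342 genes. These values are descriptions. For Myog the nearest was Mymk (myomaker, a protein of myoblast fusion), at 0.203 log2 units where the median gene was at 1.95; Mymk had 7.03 to 17.3 CPM at day 0, 205.5 to 251 at day 7 and 7.06 to 21.7 at day 21. Next came Ccnb2, a mitotic cyclin, at 0.364 and Ckap2l at 0.405. For Pax7 the nearest were Glrb (0.289), Fgfr4 (0.296), a fibroblast growth factor receptor, and Prkcq (0.302), with the median gene at 0.719. For Myf5 they were Slc39a11 (0.134), Tmem30b (0.143) and Soat1 (0.175), with the median at 0.848. For Myod1 they were Ror1 (0.16), Pprc1 (0.16) and Boc (0.161), a cell surface receptor that acts in muscle differentiation, with the median at 0.638. Myod1, the flattest of these factors between day 0 and day 7, and its nearest genes all had their highest range at day 21: Boc had 65.4 to 78.2 CPM at day 0, 68.2 to 78.1 at day 7 and 105 to 167 at day 21.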

How the data were processed

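RNA was sequenced from 12 libraries, 2 for each of 6 groups of genotype and day taken from the sample labels. Per the submitters' processing notes, kallisto 0.46.1 was used, with the builds mm10 and GRCm38.p6. The annotation is not given in the sources used here. Gene positions, transcript numbers and shared 31-base words were taken here from GENCODE, which may differ from the annotation behind the deposited counts. The authors deposited estimated counts per gene, not normalised, a table of TPM, and regularised log2 values that they corrected for a batch which no label names. The members, lists and tests were chosen with earlier results of these data known.

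Estimated counts were rounded, filtered with filterByExpr and scaled with TMM. The robust quasi-likelihood test of edgeR 4.0.16 (R 4.3.3) used a mean per group over all 12 libraries, day 21 included. Benjamini-Hochberg adjustment ran over all 15890 tested genes in each comparison, with calls at an adjusted p under 0.05. Levels of 1 gene between libraries are in CPM, and levels between genes in TPM. Genes of the lists are named by the largest and smallest log2 fold change among those called, and 3 nearest genes were named for each of Pax7, Myf5, Myod1 and Myog; the text gives part of these, and some results are not reported here. Mymk, Mymx and Adgre1 were matched by Ensembl ID.

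Alternatives were DESeq2 1.42.0, median-of-ratios scaling, no filter, at least 10 counts in every library, the replicate block, fits of fewer libraries, limma 3.58.1 on log2 TPM with a pseudocount of 1 (filtered to TPM of at least 1 in 2 libraries, or unfiltered) or 0.1, limma on the deposited log2 values, and leaving out each library. Leaving out both day 21 libraries that Sesn2 contradicts was added after seeing the data. On simulated counts, edgeR and limma missed the recovery first asked of them, with low-count genes among the changed ones; the criterion was then limited to well-expressed genes, which all 3 tools met. DESeq2 made the most false calls there.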

Additional observations from a re-analysis of the deposited data

Results flagged for a closer look

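The changes of Myf5 and Mef2a from day 0 to day 7 differed between the genotypes in the test of the interaction. The Myf5 difference, knockout minus wild type, was 0.90 ± 0.213 on the log2 scale (edgeR, adjusted p = 0.0234), with both knockout libraries of day 0 below both wild-type libraries and overlapping values at day 7. The Mef2a difference was -0.91 ± 0.156 (adjusted p = 0.00729), with both knockout libraries above both wild-type libraries at day 0 and below them at day 7.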

How the results depend on the processing

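With 2 libraries per group and day 21 libraries that disagree with their labels, calls changed with the libraries that entered the fit. Numbers of factors called are given against the main counts. At day 0 (3) they were 5 with DESeq2, the day 0 libraries alone or the batch-corrected log2 values, 6 with the day 0 and day 7 libraries alone or without both contradicted day 21 libraries, 2 with either filtered log2 TPM fit, where Pax7 lost its call and Pax3 was not tested, 1 with unfiltered log2(TPM + 1), and between 1 and 5 leaving out 1 library. At day 7 (0) the count was 1, Mef2a, with DESeq2, no filter, at least 10 counts in every library, the day 0 and day 7 or day 7 libraries alone, the batch-corrected values, or without both contradicted libraries, and 0 to 1 leaving out 1 library. By label at day 21 (0) it was 2 with DESeq2, 3 without both contradicted libraries and 0 to 2 leaving out 1. For the interaction (2) it was 4 with DESeq2, 3 with no filter (Myf6 added) or the batch-corrected values (Myog added), 6 with the day 0 and day 7 libraries alone, which are also those of the comparison alone, 5 without both contradicted libraries, 0 with unfiltered log2(TPM + 1) and 1 to 3 leaving out 1 library. From day 0 to day 7 in knockout (7) it was 4 to 8 leaving out 1 library. From day 0 to day 21 (7) it was 8 with DESeq2, which called Mef2c lower, 5 with unfiltered log2(TPM + 1), which lost Pax3 (adjusted p = 0.113) and Myf6 (adjusted p = 0.104), and 6 or 7 leaving out 1 library. The cause was not tested.

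Signs turned only for values that were not called in the main fit. Without both contradicted libraries, the day 21 values by label were 0.17 for Pax3, 0 for Myf5 and 0.07 for Six4. Pooled from day 0 to day 7, Myod1 was 0.17 in all 3 limma fits of log2 TPM, and Pax3 was -0.01 with the batch-corrected values. Leaving out 1 library, the knockout to wild-type values at day 7 ran from -0.27 to 1.20 for Pax3, -0.13 to 0.07 for Myf5 and -0.03 to 1.84 for Mef2c. By label at day 21 they ran from -0.29 to 0.68 for Myod1, -1.27 to 0.50 for Myog and -0.34 to 0.06 for Six4. From day 0 to day 7 they ran from -0.91 to 0.03 for Pax3 and -0.08 to 2.56 for Mef2c in wild type, from -0.20 to 1.27 for Pax3 in knockout, and from -0.32 to 0.41 for Pax3 and -0.08 to 0.03 for Myod1 pooled. From day 7 to day 21 Pax7 ran from -0.03 to 0.37, and from day 0 to day 21 Myog from -0.10 to 0.62.

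Of the values of single factors under the alternatives, 1738 kept their sign and side of the threshold, 46 lost a call, 68 gained one and 29 turned sign. The replicate block left the count of factors called the same in each of the 9 comparisons (3 at day 0, 0 at day 7). Samples share only a number: the differences between replicates 1 and 2 correlated between groups at r from -0.143 to 0.07 over 15 pairs of groups, with 0 pairs over 0.1. Depth limits Myf6 and Mef2c in knockout at day 0.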
